A study of Mus musculus with 18 samples.

Results

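Most Prss genes encode serine proteases of the trypsin fold or relatives of it. The family was taken here as every gene of the expression table whose symbol is Prss followed by a digit. This rule by symbol gave 37 of the 20985 genes listed. Whole testes of outbred ICR mice aged 10 weeks were profiled by RNA sequencing. The study asked what transplanted gut microbiota do to a testis damaged by streptozotocin. The deposited values were read as FPKM, a unit that divides by transcript length and by library depth, as explained with the processing.

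There were 6 groups of 3 libraries each. The STZ+AOS group received streptozotocin (STZ), a compound toxic to the insulin-producing beta cells of the pancreas, together with 10 mg/kg of alginate oligosaccharide (AOS), a digest of the seaweed polysaccharide alginate. The STZ+AOS-FMT group received STZ and a faecal microbiota transplant (FMT), read from the labels as coming from donors given AOS at 10 mg/kg. The STZ+control-FMT group received STZ and a transplant read in the same way as coming from control donors. The STZ group received STZ alone, the AOS group AOS at 10 mg/kg alone, and of the control group the labels give no more than the name. All groups share strain, tissue and age. Whether each library stands for its own animal is not given, and the p-values then describe the spread between these samples, which may be technical.

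Trypsin-like proteases cut proteins after basic residues with a catalytic triad of histidine, aspartate and serine, and are made as inactive precursors. Many Prss genes are expressed mainly in the testis, in spermatocytes and spermatids, and their products sit in the acrosome or on the surface of sperm, where they act in sperm maturation, in movement into the oviduct and in passage through the coat of the egg. Several members have lost a residue of the triad and are not expected to cut proteins.

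The sequence around the catalytic serine shows this difference between members, and it is given for those on which the results below turn. Each line holds the 27 coding bases centred on the codon that aligns with the active serine of Prss21, 5′ to 3′ on the coding strand, with that codon in capitals. The bases come from GENCODE M21 transcripts of the build GRCm38 (mm10), and the coordinates, all exonic and coding, include the intron that splits each of these windows. The first 7 windows have a serine codon. That alone does not give a whole triad, since Prss39 had no aspartate codon at the place aligned with the aspartate of Prss21.
Prss21, chr17:23872520-23872815, plus strand: tgctttggtgacTCGggaggacccttg
Prss55, chr14:64075774-64077086, minus strand: tgccagggtgacAGTgggggaccgctt
Prss39, chr1:34502191-34502644, plus strand: tgccgaggagacTCTgggggccccctg
Prss40, chr1:34552789-34555974, minus strand: tgcgcaggagatTCTgggggccccctt
Prss52, chr14:64112619-64113487, plus strand: tgccagggcgacAGTggaggagctctc
Prss47, chr13:65045075-65046215, minus strand: tgcaggggtgacTCTgggggccctctc
Prss36, chr7:127936818-127941042, minus strand: tgccagggtgacTCTgggggaccgctg
The next 4 windows have another codon at that place, for proline in Prss45 and Prss54 and for threonine in Prss50 and Prss58.
Prss45, chr9:110840545-110840865, plus strand: tgctatggagacCCCggggggccattg
Prss50, chr9:110863891-110864301, plus strand: tgctatgagataACTggcgagcccctg
Prss54, chr8:95559802-95564355, minus strand: tgcctgggggaaCCAggaagccctatg
Prss58, chr6:40895491-40895600, minus strand: tgcaaggaagtcACGgctgccccagca

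Over the family, 29 members had a serine codon at the aligned place and these 4 had another codon. In 4 (Prss16, Prss23, Prss35 and Prss37) no codon aligned with it. For Prss16, Prss23 and Prss35 the local alignment to Prss21 covered only 40, 17 and 23 residues. A serine outside the alignment would not be seen, so the missing codon does not show that these members lack it. All 37 members matched a GENCODE gene. Several lie side by side in the genome: Prss42, Prss44, Prss43, Prss45, Prss46 and Prss50 follow each other on chromosome 9, Prss55, Prss51 and Prss52 on chromosome 14, and Prss39 and Prss40 are close on chromosome 1.

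Of the 37 members, 23 reached 1 FPKM in at least 3 of the 18 libraries and were tested. Read as FPKM, the values are scaled by transcript length, and only on that reading can levels be set beside each other between genes. The unit is inferred, and over all low genes the lowest value was only weakly related to transcript length (Spearman correlation −0.104). Prss39, which encodes the acrosomal protease TESP1, was highest with a mean of 356.8 FPKM over the 18 libraries, followed by Prss37 at 265.2 FPKM and Prss55 at 150.5 FPKM. Prss58 averaged 111.1 FPKM and Prss52 106.3 FPKM, and these neighbours lie closer than their SDs of 22.6 and 21.7 FPKM within STZ. Prss39 and Prss37 together made up 41.4 to 45.9% of the summed FPKM of all members in each library. At the low end of the tested members were Prss41 at 1.93 FPKM and Prss36 at 1.25 FPKM.

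The other 14 members stayed under the filter. Prss22 was listed at 0 in all 18 libraries, Prss28 in 17 and Prss34 in 16, and Prss27, Prss29, Prss32 and Prss57 did not exceed 0.15 FPKM in any library. These 7 include mast cell, mucosal and uterine proteases. Prss2, a pancreatic trypsinogen, reached at most 0.49 FPKM, and the remaining members under the filter were Prss8, Prss12, Prss16, Prss30, Prss33 and Prss53.

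The STZ libraries stood apart from the other groups in the levels of cell type marker genes, and they also differed among themselves. The 15 Sertoli cell markers (Sertoli cells support the germ cells) summed to 1996, 2652 and 2553 FPKM in STZ replicates 1, 2 and 3, against 831 to 907 FPKM in control. The 12 markers of elongating spermatids, among them the protamines, summed to 49453, 27098 and 35440 FPKM in STZ replicates 1, 2 and 3, against 54132 to 60671 FPKM in control. STZ replicate 1 thus lay nearest to control in both, and its 8 Leydig cell markers summed to 1793 FPKM, against 11952 and 12749 FPKM in STZ replicates 2 and 3 and 3510 to 4027 FPKM in control. None of the genes in these 3 lists was at 0 in all libraries of a group, so the defining markers of testis were present in every group. In whole tissue, fewer cells of a type and less RNA per cell cannot be told apart.

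In STZ testes Prss21, Prss37, Prss40, Prss47, Prss52, Prss54, Prss55 and Prss58 fell relative to control testes, and Prss35, Prss36 and Prss50 rose. The most abundant member, Prss39, did not pass the test. Of the 23 tested members, 8 fell and 3 rose at a Benjamini-Hochberg adjusted p under 0.05 (limma, fitted over all 14164 genes tested), where 12.0% of all genes fell and 43.2% rose. The median log2 fold change was −0.17 over the members and 0.17 over all genes tested. The libraries did not overlap for 7 members lower in STZ and 2 higher, against 11.5% and 42.1% of all genes. The summed FPKM of all 37 members was 1250.2 ± 185 in STZ, with 1459, 1109 and 1183 in replicates 1, 2 and 3, and 1463.6 ± 35.9 in control (SD, n = 3 each).

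**Figure D1:**
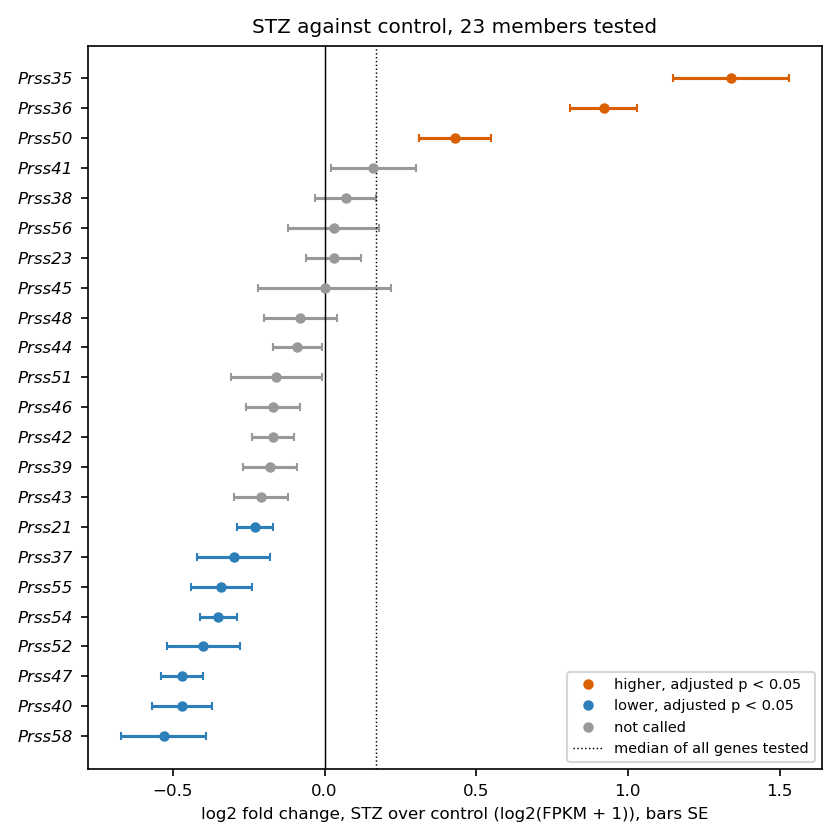
Log2 fold change of STZ over control on the log2(FPKM + 1) scale for the 23 tested members, with bars of 1 SE from the limma fit. Prss35 at 1.34 and Prss36 at 0.92 stand furthest to the right, 8 members in blue fell, and the dotted line marks the median of all genes tested at 0.17.

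The split depends on the scaling. With every library centred on its median, 16 members fell, and with quantile normalization 13 fell, where 43.2% and 28.9% of all genes tested fell under these scalings. The share of all called genes that rose was 78.2% as deposited, 30.4% with median centring and 43.5% with quantile normalization. The median log2 fold change of all genes moved to −0.17 with median centring and −0.06 with quantile normalization, and that of the members to −0.51 with median centring. Without STZ replicate 1, 12 members fell, and without STZ replicate 2, 6 fell. With only the STZ and control libraries in the fit 4 fell. Prss37 (limma adjusted p = 0.17), Prss55 (0.091), Prss52 (0.089), Prss50 (0.075) and Prss58 (0.052) were not called there. The shares of all genes that fell without a library or with only these groups are not given here.

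Prss55, Prss37 and Prss21 are the 3 members listed here for a role in sperm function known from mouse knockouts. All 3 fell in STZ, where 12.0% of all genes fell. The list was chosen by hand and may leave out other members with such a role. Prss55 encodes a membrane-anchored sperm protease without which mouse sperm lack the surface protein ADAM3 and do not pass into the oviduct. Prss55 was at 148.2, 98.7 and 114.7 FPKM in STZ, against 151.9, 150.5 and 149.1 FPKM in control. The groups did not overlap, although STZ replicate 1 came within 1 FPKM of the lowest control library. The log2 fold change was −0.34 (SE 0.10, limma adjusted p = 0.0082), and it was −0.21 without STZ replicate 2. With only the 2 groups in the fit it was not called (adjusted p = 0.091).

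Prss37, whose loss in mice also removes mature ADAM3 from sperm, was at 289.7, 183.5 and 205.2 FPKM in STZ, against 268.4, 273.4 and 279.7 FPKM in control. STZ replicate 1 was above all 3 control libraries, so the groups overlapped, and the other STZ libraries lay well below them. The fold change of −0.30 (SE 0.12, limma adjusted p = 0.041) is close to the threshold, and the call was lost without STZ replicate 2 (adjusted p = 0.23), without STZ replicate 3 (adjusted p = 0.15) and without any single control replicate (adjusted p of 0.07 to 0.094). It was also lost with quantile normalization (−0.20, adjusted p = 0.1) and with only the 2 groups in the fit (adjusted p = 0.17). Prss21 encodes testisin, a lipid-anchored protease of the sperm surface. It was at 45.3, 40.2 and 46.2 FPKM in STZ, against 51.9, 50.8 and 52.2 FPKM in control, with no overlap. Its change was small, with a log2 fold change of −0.23 (SE 0.06, limma adjusted p = 0.0039).

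The acrosomal pair Prss39 and Prss40, encoding TESP1 and TESP2, did not give the same call as deposited. Prss40 was at 36.9, 35.6 and 29.9 FPKM in STZ, against 47.8, 53.4 and 41.7 FPKM in control, with every STZ library below every control library, and fell by 0.47 on the log2 scale (SE 0.10, limma adjusted p = 0.00087). Prss39 was at 380.5, 275.9 and 295.2 FPKM in STZ, against 363.9, 361.3 and 345.8 FPKM in control. STZ replicate 1 was the highest of these 6 libraries, and the log2 fold change of −0.18 (SE 0.09) did not pass the test (limma adjusted p = 0.098). Without STZ replicate 1 it was −0.32 and passed (adjusted p = 0.00036). With median centring both fell, Prss39 by 0.53 (adjusted p = 0.0019) and Prss40 by 0.81 on the log2 scale.

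Among further members of the germ line, Prss58, Prss52 and Prss54 fell. Prss58 was at 108.1, 63.1 and 82.1 FPKM in STZ, against 126.0, 117.7 and 115.0 FPKM in control, the lowest fold change of the family at −0.53 (SE 0.14, limma adjusted p = 0.005). No STZ library reached the control range, and without STZ replicate 2 the log2 fold change was −0.34. Prss52, known as TESP3, was at 110.2, 69.0 and 77.9 FPKM in STZ, against 115.3, 114.5 and 104.5 FPKM in control. STZ replicate 1 lay inside the control range, and the log2 fold change of −0.40 (SE 0.12, limma adjusted p = 0.0099) was −0.26 and no longer called without STZ replicate 2 (adjusted p = 0.063). Prss54 was at 62.5, 67.0 and 54.3 FPKM in STZ, against 77.8, 81.0 and 75.2 FPKM in control, without overlap and with a log2 fold change of −0.35 (SE 0.06, limma adjusted p = 0.00029).

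Prss47 had the most even decrease. It was at 17.5, 18.3 and 18.1 FPKM in STZ, against 24.0, 27.2 and 24.6 FPKM in control. The 3 STZ libraries differed by less than 1 FPKM, and STZ replicate 1 did not stand out. The log2 fold change was −0.47 (SE 0.07, limma adjusted p = 6.5e-05), and leaving out any one library kept it between −0.50 and −0.41.

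**Figure D2:**
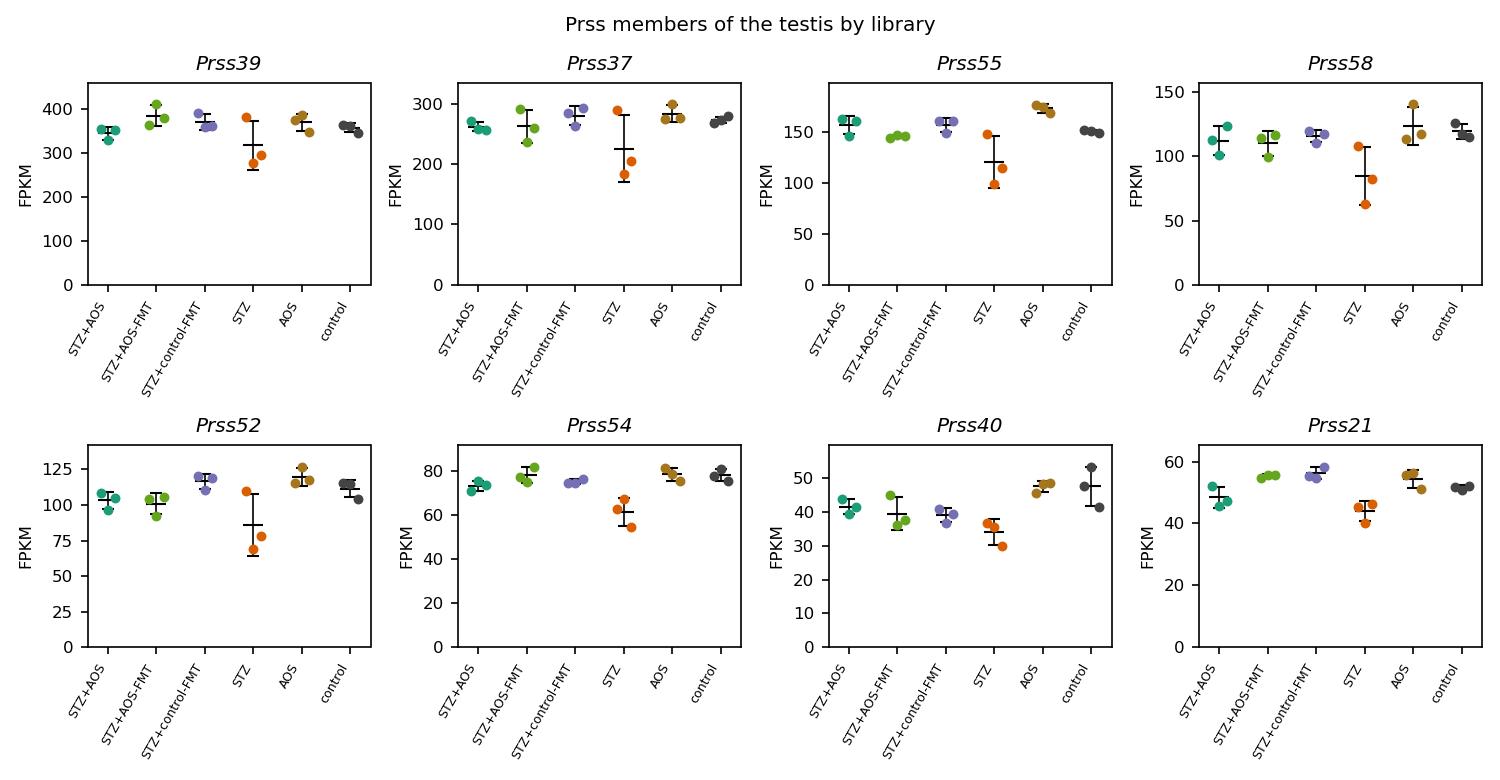
FPKM of 8 members in each library of the 6 groups, with the mean and 1 SD as bars. For Prss39, Prss37, Prss55, Prss58 and Prss52 the STZ group holds 1 library near the other groups and 2 lower ones. All 3 STZ libraries lie below the control libraries for Prss54, Prss40 and Prss21, and also for Prss55 and Prss58.

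Of the 7 members called testis-specific serine proteases (Prss41 to Prss46 and Prss50), 1 rose and none fell on the deposited scale. Of all genes, 43.2% rose and 12.0% fell, so that so few members fell does not set these 7 apart. Prss50, whose product TSP50 has threonine in place of the catalytic serine as in the window above, was at 16.27, 23.34 and 26.37 FPKM in STZ, against 14.96, 16.29 and 15.98 FPKM in control. STZ replicate 1 lay at the top of the control range and replicates 2 and 3 above it. The log2 fold change was 0.43 (SE 0.12, limma adjusted p = 0.0068), but 0.09 with median centring (adjusted p = 0.42) and 0.24 with quantile normalization (adjusted p = 0.068), where it was not called. Its neighbours on chromosome 9 gave log2 fold changes of −0.17 for Prss42, −0.21 for Prss43, −0.09 for Prss44 and −0.17 for Prss46, none of which passed. Prss46 was at 72.1, 67.8 and 52.3 FPKM in STZ, against 73.8, 70.5 and 69.7 FPKM in control. It fell with median centring (−0.51, limma adjusted p = 0.0014) and without STZ replicate 1 (−0.26, adjusted p = 0.022). Prss42, Prss43 and Prss44 are not given here under these settings, so this does not set Prss46 apart from them.

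The largest increases were in Prss35 and Prss36, which are not sperm genes by their known roles. Prss35 encodes a secreted member, known from mouse ovary, that has lost the catalytic serine. It was at 18.1, 34.9 and 24.6 FPKM in STZ, against 9.75, 9.47 and 8.66 FPKM in control. Every STZ library was above every control library, and the log2 fold change was 1.34 (SE 0.19, limma adjusted p = 3.2e-05). Prss36 encodes polyserase-2, a secreted protein with several protease domains. It was at 2.04, 2.65 and 2.99 FPKM in STZ, against 0.83, 0.79 and 0.98 FPKM in control, again with no overlap, and the log2(FPKM + 1) fold change, which understates the change at this level, was 0.92 (SE 0.11, limma adjusted p = 8.5e-06). Prss36 reached 1 FPKM in 9 libraries, among them all 3 of STZ and none of control.

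Prss35 and Prss36 rose in the libraries in which marker genes of Sertoli cells and macrophages were high. All 15 Sertoli markers rose in STZ, as did 8 of 9 macrophage markers, where 43.2% of all genes rose. The macrophage markers summed to 169, 345 and 292 FPKM in STZ and 62.6 to 63.9 FPKM in control. Of the other somatic lists, 5 of 6 peritubular myoid, 4 of 6 endothelial and 1 of 8 Leydig markers rose. In the germ line, 6 of 7 tested spermatogonia markers rose as well. The part of these cells in the levels of Prss35 and Prss36 was not tested. Prss23, the closest relative of Prss35 in the family with 55.0% identical residues over 349 aligned, was at 10.8, 10.7 and 12.1 FPKM in STZ, against 10.6, 10.5 and 11.7 FPKM in control, and its log2 fold change of 0.03 did not pass (limma adjusted p = 0.78). Of the 50-base stretches of its transcript, 25.7% also lie in its antisense gene Prss23os, and whether counting used strand is not stated, so its level is uncertain.

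The 250 bases before the annotated start of Prss35, from RefSeq on GRCm38.p6, hold 1 match to the letters TGACG or their reverse complement CGTCA, shown in capitals. These letters are part of the cyclic AMP response element that activates many spermatid genes, and Prss35 is shown because it had the largest change of the family on the log2(FPKM + 1) scale. With a pseudocount of 0.1 the fold change of Prss36 was the larger.
Prss35, chr9:86743383-86743632, plus strand: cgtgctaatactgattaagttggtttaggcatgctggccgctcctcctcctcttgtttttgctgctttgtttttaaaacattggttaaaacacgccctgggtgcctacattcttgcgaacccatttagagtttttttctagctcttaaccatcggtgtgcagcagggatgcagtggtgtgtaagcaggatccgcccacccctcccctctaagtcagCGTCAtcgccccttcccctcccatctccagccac
Searched on both strands, TGACG was present before 5 of the 27 members with a RefSeq promoter (Prss23, Prss28, Prss29, Prss35 and Prss38), against 19.8% of 27025 genes. The longer TGACGTCA, which contains it, was present before 0 of the 27 members and 1.77% of genes.

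**Figure D3:**
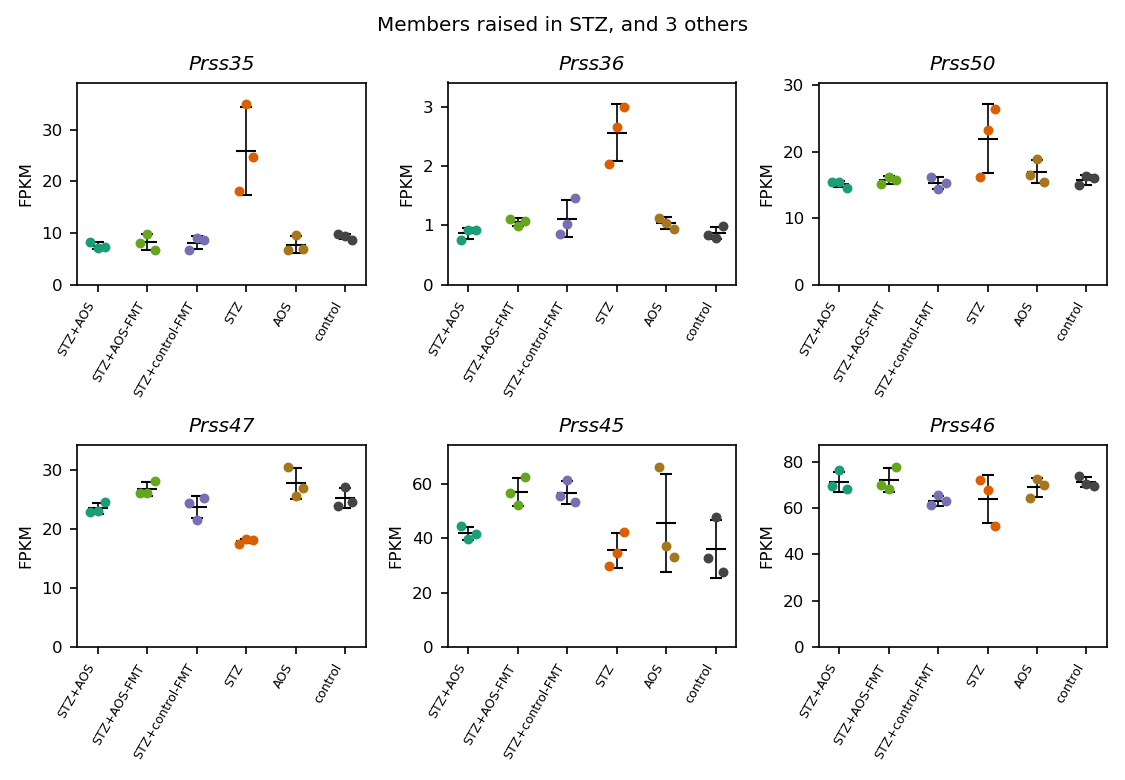
FPKM of 6 further members in each library of the 6 groups, with the mean and 1 SD as bars. Prss35, Prss36 and Prss50 are high in STZ, Prss47 is low there, and Prss45 lies between 52.1 and 62.4 FPKM in both transplant groups.

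With the filter on low values removed, Prss12, which encodes neurotrypsin, also differed. It was at 0.58, 1.09 and 0.99 FPKM in STZ, against 0.31, 0.25 and 0.31 FPKM in control, with a log2 fold change of 0.54 (SE 0.12, limma adjusted p = 0.0024). Prss2 was at 0.21, 0.49 and 0.30 FPKM in STZ, against 0.19, 0 and 0 FPKM in control (log2 fold change 0.33, limma adjusted p = 0.021). Both were chosen after their values were seen. The 7 acinar pancreas markers, which include Prss2, summed to 1.43 to 2.52 FPKM in STZ and 0.89 to 1.22 FPKM in control.

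Genes of the acrosome and of the ADAM3 pathway were counted beside the members. In STZ 12.0% of all genes fell and 43.2% rose. These shares depend on the scaling, and the counts of these lists under other scalings are not given here. Of 19 genes of the acrosome and of binding to the egg coat, 15 fell and none rose in STZ, with a median log2 fold change of −0.22. Crisp2, a cysteine-rich sperm protein gene, was at 1415 ± 183 FPKM in STZ testes, against 1887 ± 98 FPKM in control testes (SD, n = 3 each, limma adjusted p = 0.00088). Acr, the main acrosomal protease acrosin, was at 164.4 ± 6.65 FPKM in STZ testes, against 193.3 ± 4.95 FPKM in control testes (SD, n = 3 each, limma adjusted p = 0.0018). Of 15 tested genes for ADAM3 and its maturation, 10 fell and 2 rose. Adam3 itself was at 409.2 ± 24.6 FPKM in STZ testes, against 516.9 ± 12.5 FPKM in control testes (limma adjusted p = 8.8e-05), and the chaperone gene Clgn fell by 0.27 on the log2 scale. The 2 that rose were the chaperone gene Calr, at 367.5 ± 40.7 FPKM in STZ testes, against 307.7 ± 11.3 FPKM in control testes (limma adjusted p = 0.0036), and Tpst2, a tyrosine sulfotransferase gene, with a log2 fold change of 0.55 (limma adjusted p = 0.0035).

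Serine proteases outside the family and protease inhibitors were counted in the same way, to be read against the 43.2% of all genes that rose and 12.0% that fell. Of 16 tested other serine proteases, 9 rose and 2 fell. Plat, tissue plasminogen activator, rose and was at 15.3 ± 2.99 FPKM in STZ testes, against 4.30 ± 0.34 FPKM in control testes (limma adjusted p = 3.1e-08), and the complement protease gene C1s1 rose by 2.33 on the log2 scale. The 2 that fell were Acr and the sperm convertase gene Pcsk4. Of 27 tested protease inhibitors, 13 rose and 2 fell. Serpina3n, an inhibitor of the serpin class, was at 54.8 ± 25.9 FPKM in STZ testes, against 3.54 ± 0.518 FPKM in control testes (limma adjusted p = 1.7e-06), and Serping1, the C1 inhibitor gene, rose by 1.87 on the log2 scale. Wfdc3 fell by 0.33 (limma adjusted p = 0.007) and Spink2, the acrosin inhibitor of spermatids, by 0.19 on the log2 scale (limma adjusted p = 0.04).

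The 3 groups given AOS or a transplant besides STZ were each compared with the same STZ libraries, so what is particular to those libraries enters all 3 comparisons. In STZ+AOS, 8 members were higher and 3 lower than in STZ, where 11.9% of all genes were higher and 43.1% lower. In STZ+AOS-FMT, 9 were higher and 3 lower, against 12.0% and 44.5% of all genes. In STZ+control-FMT, 10 were higher and 3 lower, against 11.4% and 39.9% of all genes. The member median log2 fold change was 0.19, 0.21 and 0.19 in that order, and that of all genes −0.17, −0.18 and −0.15. Without overlap with STZ, 5, 5 and 8 members were higher, against 11.1%, 10.7% and 11.0% of all genes, and 4, 2 and 3 lower, against 41.1%, 42.7% and 38.2% of all genes. Leaving out STZ replicate 2 cut the members higher to 4, 4 and 6, and leaving out STZ replicate 1 gave 14 in STZ+AOS. The shares of all genes without these libraries are not given here. Centred on medians, 69.2 to 70.3% of all called genes were higher in these comparisons, against 21.3 to 22.2% as deposited.

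The members lower in all 3 comparisons were Prss35, Prss36 and Prss50. Prss35 was at 8.27, 7.06 and 7.18 FPKM in STZ+AOS, 8.03, 9.75 and 6.68 FPKM in STZ+AOS-FMT and 6.62, 8.98 and 8.56 FPKM in STZ+control-FMT, all of them below the lowest STZ library at 18.1 FPKM. Its log2 fold changes against STZ were −1.61, −1.52 and −1.53 (SE 0.19 each, limma adjusted p = 6.6e-06, 9e-06 and 1.2e-05). For Prss36 these were −0.93, −0.79 and −0.76 (SE 0.11 each), with no library of the 3 groups above 1.46 FPKM. For Prss50 they were −0.48, −0.44 and −0.47 (SE 0.12 each), and these calls were lost with median centring. The Sertoli marker sums in the 3 groups were 943 to 994, 874 to 906 and 875 to 972 FPKM, and their part in these levels was not tested.

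The members higher in all 3 comparisons were Prss42, Prss47, Prss54, Prss55 and Prss58. Prss47 was at 22.9, 23.2 and 24.6 FPKM in STZ+AOS, 26.2, 26.1 and 28.1 FPKM in STZ+AOS-FMT and 24.4, 21.6 and 25.3 FPKM in STZ+control-FMT, all above the highest STZ library at 18.3 FPKM. Its log2 fold changes were 0.37, 0.55 and 0.38 (SE 0.07 each, limma adjusted p = 0.00048, 1.3e-05 and 0.00045). Prss54 was at 70.8 to 75.2, 74.9 to 81.9 and 74.4 to 76.5 FPKM in the 3 groups, against 54.3 to 67.0 FPKM in STZ. Prss47 and Prss54 kept their calls when any one library was left out. Without STZ replicate 2, Prss42 had log2 fold changes of 0.12, 0.14 and 0.10 and Prss58 of 0.25, 0.22 and 0.30, none of which passed, and Prss55 was not called in STZ+AOS-FMT (0.16, limma adjusted p = 0.12). Leaving out a single library of the treated group also ended the Prss42 calls in all 3 comparisons and the Prss58 calls in STZ+AOS and STZ+AOS-FMT. The elongating spermatid marker sums were 53642 to 59490, 57237 to 63087 and 52981 to 62744 FPKM, against 27098 to 49453 FPKM in STZ, and their part in these levels was not tested.

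Other members were called in some of these comparisons only. Prss40 was higher in STZ+AOS (0.28, limma adjusted p = 0.022), a call lost without STZ replicate 3 (adjusted p = 0.13) or STZ+AOS replicate 1 (adjusted p = 0.081). Prss43 was called in STZ+AOS and STZ+AOS-FMT, Prss52 in STZ+AOS and STZ+control-FMT, and Prss39 in both transplant groups. Without STZ replicate 2 the Prss43 calls were lost (0.13 and 0.17, adjusted p = 0.24 and 0.14), as were Prss52 in STZ+AOS (0.15, adjusted p = 0.27) and Prss39 in STZ+AOS-FMT (0.19, adjusted p = 0.082) and STZ+control-FMT (0.14, adjusted p = 0.22). Each of these 5 calls was also lost when single other libraries, of the treated groups among them, were left out. Prss21 was higher in STZ+AOS-FMT (0.33) and STZ+control-FMT (0.35). Prss37 was higher in STZ+control-FMT (0.34, limma adjusted p = 0.026), not without STZ replicate 2 (adjusted p = 0.15), and had log2 fold changes of 0.24 in each of the other treated groups, which did not pass. The differences between these comparisons were tested only for the transplant pair below.

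Prss45, whose codon at the serine place is for proline, was higher in both transplant groups than in STZ, although its means in STZ and control were close, at 35.6 ± 6.36 and 36.2 ± 10.6 FPKM (SD, n = 3 each). It was singled out after its values were seen. It was at 56.8, 52.1 and 62.4 FPKM in STZ+AOS-FMT and at 55.7, 61.4 and 53.2 FPKM in STZ+control-FMT, against 29.9, 34.4 and 42.4 FPKM in STZ. Both groups lay above STZ without overlap, with log2 fold changes of 0.68 (SE 0.22, limma adjusted p = 0.014) and 0.67 (SE 0.22, adjusted p = 0.017). They also lay above the control libraries at 32.9, 48.0 and 27.7 FPKM, with log2 fold changes of 0.68 and 0.67 that did not pass over all genes (limma adjusted p = 0.62 each). The AOS libraries were at 66.4, 37.4 and 33.0 FPKM, so 1 of them exceeded all transplant libraries. Against STZ both calls were lost without STZ replicate 1, at adjusted p = 0.05 and 0.055, and one each without STZ+AOS-FMT replicate 3 (adjusted p = 0.051) and STZ+control-FMT replicate 2 (adjusted p = 0.053).

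**Figure D4:**
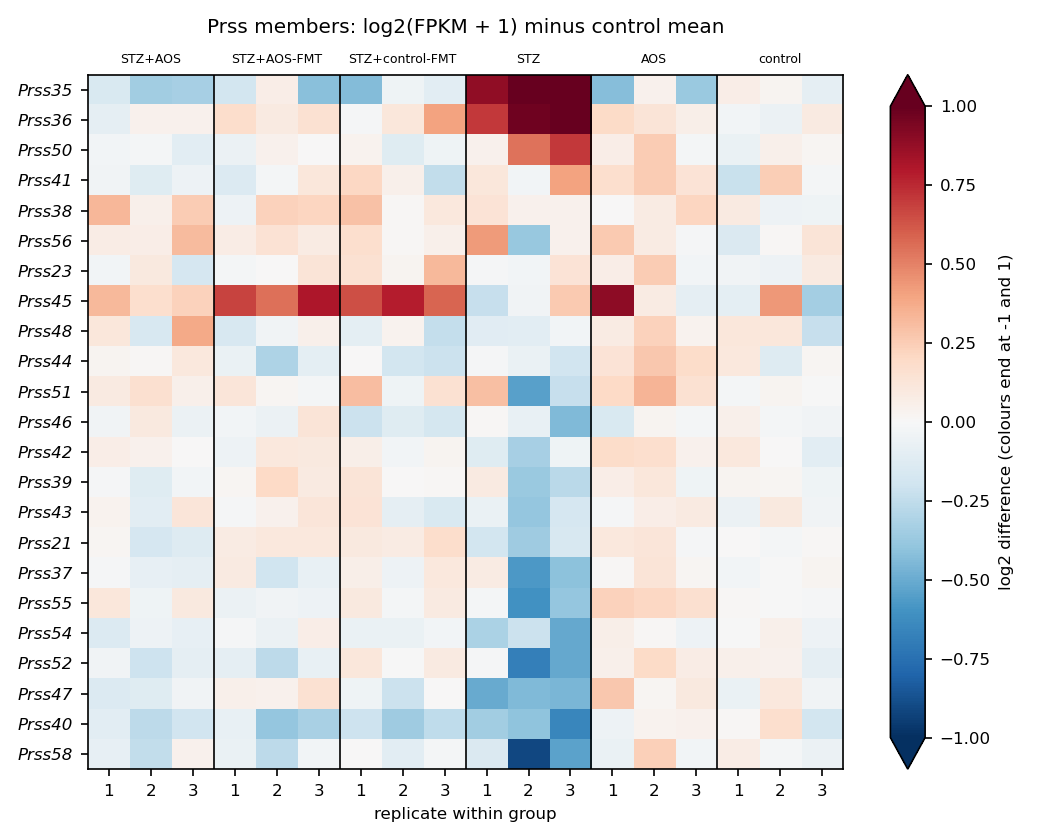
Difference of log2(FPKM + 1) from the control mean for the 23 tested members in each of the 18 libraries, with red for higher and blue for lower and colours ending at −1 and 1. STZ replicates 2 and 3 are blue for most sperm members, STZ replicate 1 is paler, and the Prss45 row is red in all 6 transplant libraries.

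The comparisons that do not contain STZ alone called no member. AOS against control called 0 members and 0 of 14164 genes (limma), with 1 member and 1273 genes at an unadjusted p under 0.05. Prss44, Prss51 and Prss55 were higher in every AOS library than in every control library, where 7.65% of all genes were. Prss55 was at 176.7, 174.2 and 168.5 FPKM in AOS, against 151.9, 150.5 and 149.1 FPKM in control, with a log2 fold change of 0.20 (SE 0.10, limma adjusted p = 0.56).

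STZ+AOS-FMT against STZ+control-FMT called 0 members and 0 genes, with 1 member and 866 genes at an unadjusted p under 0.05. The lowest unadjusted p was that of Prss47, with a log2 fold change of 0.17 (SE 0.07, limma adjusted p = 0.8) and no overlap between the groups. Against control, STZ+AOS, STZ+AOS-FMT and STZ+control-FMT called 0 members each, while 0.0424%, 0.0% and 0.0% of all genes were called. An unadjusted p under 0.05 (limma) was reached by 0, 2 and 2 of the 23 tested members, and by 1130, 927 and 883 of the 14164 genes. A p that misses the threshold does not show that the levels are alike, and for Prss40 the log2 fold change against control was −0.19, −0.26 and −0.27 (SE 0.10 each) in the 3 groups.

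STZ+AOS against AOS called 0 members (limma), where 0.0141% of all genes were called. At an unadjusted p under 0.05 were 2 of the 23 tested members and 1781 of the 14164 genes. In 9 members every STZ+AOS library was below every AOS library and in none the reverse, where 8.96% of all genes were lower without overlap and 15.5% higher. The lowest adjusted p among them was 0.25 for Prss47, at 22.9, 23.2 and 24.6 FPKM in STZ+AOS and 30.6, 25.6 and 27.1 FPKM in AOS.

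Whether AOS acted differently with STZ than without was tested as an interaction, the STZ+AOS minus STZ difference less the AOS minus control difference. It was called for 4 members, of which 1 was higher and 3 lower, where 6.12% of all genes were higher and 29.1% lower. Prss35 had an interaction of −1.36 (SE 0.27, limma adjusted p = 0.0016), from −1.61 with STZ and −0.25 without. Prss36 had −1.05 (SE 0.16, limma adjusted p = 0.00027) and Prss50 −0.58 (SE 0.17, limma adjusted p = 0.016), which was −0.27 and not called with median centring (adjusted p = 0.11). Prss54 had 0.25 (SE 0.09, limma adjusted p = 0.039), a call that was lost when any one of 7 libraries was left out. Against the same STZ libraries STZ+control-FMT, whose label names no AOS, had log2 fold changes of −1.53, −0.76 and −0.47 for Prss35, Prss36 and Prss50. For Prss54 it had 0.3. Whether the interaction is particular to AOS was not tested. The F test over all 6 groups called 13 of the 23 tested members, where 52.3% of all genes were called.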

How the data were processed

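RNA was measured in 18 libraries of whole testis. The authors deposited 1 table with a value per gene and library. Its header names no unit, and the deposited values were read as FPKM, an inference from the values and not a stated fact. Under FPKM the lowest value of a rarely detected gene should fall with transcript length. Over all 5246 genes with values under 1 the Spearman correlation was only −0.104, and it was −0.499 in the 1846 of them at 0 in at least 9 libraries and −0.449 in the 955 at 0 in at least 15. Per the submitters' processing notes, Bowtie 0.12.2 and the build mm10 were used, with no role given. Which counter, annotation, strand setting and scaling were used is not given in the sources used here. Depth per library is unknown, so no counting interval was computed. Library sums were 561038 to 622169, and replicates of a group correlated at 0.9782 to 0.9946 (Pearson, log2 values).

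Tests used limma 3.58.1 in R 4.3.3, with a mean-variance trend, on log2(FPKM + 1) of the unaltered deposited table, for the 14164 genes with at least 1 FPKM in at least 3 libraries. A single fit held the 18 libraries and 6 group means, and p-values were adjusted over all genes tested (Benjamini-Hochberg, threshold 0.05, two-sided). The code was tested on simulated data. Members and gene lists were chosen with earlier results of these data known. Values per library are given for the 8 members with the highest mean, for those called in STZ against control and for any called in a comparison without STZ alone, with Prss45, Prss23, Prss12 and Prss2 added after their values were seen. Other lists are given as counts with examples from the called genes of smallest p in each direction. Same-numbered replicates did not pair: no comparison had all 3 correlations of their deviations over 0.1. Coordinates and codons come from GENCODE M21, with members aligned to Prss21 by local protein alignment (Biopython 1.88, BLOSUM62). Alternatives tried were no filter, median centring, quantile normalization, a pseudocount of 0.1, only the 2 groups compared, a replicate block and leaving out each library.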

Additional observations from a re-analysis of the deposited data

Results flagged for a closer look

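The difference between groups with and without AOS was not the same with STZ as without it for 4 members. The interaction test over all genes (limma, Benjamini-Hochberg) called 1 higher and 3 lower, where 6.12% of all genes were higher and 29.1% lower. STZ+control-FMT, whose label names no AOS, also differed from the same STZ libraries in these members. Whether the interaction is particular to AOS was not tested. Prss35 differed by −1.36 on the log2 scale, with −1.61 with STZ and −0.25 without. Prss36 differed by −1.05, with −0.93 with STZ and 0.13 without. Prss50 differed by −0.58, with −0.48 with STZ and 0.10 without, and was not called with median centring (−0.27, adjusted p = 0.11). Prss54 differed by 0.25, with 0.26 with STZ and 0.00 without, a call lost when any one of 7 libraries was left out.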

How the results depend on the processing

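No called member, and no member median in the 4 comparisons that contain STZ alone, turned in sign under the alternatives run, but the median of all genes did: it was −0.17 with median centring and −0.06 with quantile normalization in STZ against control, against 0.17 as deposited. Over the results of members named by the rule, most of them already called, 545 kept their side of the threshold, 107 lost their call and 4 gained one. Without a filter, STZ against control had 5 members higher and STZ+AOS-FMT against STZ 5 lower. With median centring, STZ against control had 16 members lower (median −0.51), where 43.2% of all genes were lower. STZ+AOS, STZ+AOS-FMT and STZ+control-FMT against STZ had 19, 19 and 17 members higher (medians 0.54, 0.57 and 0.50). Of all genes, 44.6, 44.8 and 41.9% were higher in these comparisons under that scaling. The interaction had 9 members higher and the F test called 20. With quantile normalization, STZ against control had 13 members lower, where 28.9% of all genes were lower. STZ+AOS and STZ+AOS-FMT against STZ had 13 and 14 higher (medians 0.34 and 0.35), where 29.9 and 29.8% of all genes were higher. STZ+control-FMT against STZ had a member median of 0.33, and the interaction had 2 members higher. With only the 2 groups compared, STZ against control had 4 lower, and the 3 comparisons with STZ had 1, 4 and 4 higher. The cause of these shifts was not tested. For the alternatives with no share of all genes beside them, here and below, the counts do not set the family apart from other genes.

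Leaving out each library gave 6 to 12 members lower and 3 higher in STZ against control (median −0.26 to −0.09), 4 to 14 higher in STZ+AOS (median 0.12 to 0.26), 4 to 13 in STZ+AOS-FMT (0.12 to 0.27) and 6 to 12 in STZ+control-FMT (0.10 to 0.24) against STZ, 0 to 7 higher and 3 to 4 lower in the interaction, and 8 to 15 in the F test. A replicate block left STZ against control at 3 higher and 8 lower, and STZ+AOS and STZ+control-FMT against STZ at 7 and 9 higher, without Prss43 and Prss42. The replicate numbers do not pair the samples: the correlations of same-numbered libraries ran from −0.205 to 0.201, and every sample correlated best with its own number in STZ+control-FMT against STZ and in no other comparison. The depth is unknown, so it cannot be said how far counting error limits the low members.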
